A study of Mus musculus with 35 samples.

Results

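The heat shock response was followed through 9 genes in sorted dendritic cells: Hspa1a, Hspa1b, Hsp90aa1, Hsph1, Dnajb1, Dnaja1, Hspb1, Hspa8 and Bag3. The genes were listed by name as members of this response, with Hspa1a first, after results of the same arrays were known, and the comparison that led to the choice is not recorded in the sources used here. Differences between groups may therefore have been in view when the genes were chosen. They are given as descriptions, and an adjusted p below only places a gene within the fit over all genes. Of the 9 genes, 8 had a transcript cluster (a set of array probes summarised to 1 value) of their own among the 19938 genes named on the array. Hspa1b was covered only by a cluster annotated to Hspa1a and Hspa1b together. In all, 18 clusters carried the symbol of at least 1 of these genes.

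The cells were type 1 conventional dendritic cells (cDC1) of mouse spleen, purified by flow cytometric sorting after collagenase digestion of the organ, and their total RNA was amplified and hybridised to 35 Affymetrix arrays. Set 1 held 5 arrays of Mycl heterozygous cells (Het, genotype MyclGFP/+) and 4 of homozygous mutant cells (KO, MyclGFP/GFP) at steady state. In set 2, also at steady state, 5 arrays were wild type (WT, Mycl+/+) and 5 were Mycl KO (MyclGFP/GFP). Set 3 held 5 WT and 5 Mycl KO arrays of the same genotypes, taken 5 h after 100 µg of poly IC, given into the peritoneum; poly IC is an RNA duplex made to mimic viral RNA, and it sets off interferon production. The Mxd1 set held 3 WT arrays (Mxd1+/+) and 3 arrays labelled Mxd1 KO (Mxd1-/-), all taken 18 h after the same amount of poly IC. Every group thus shared the digestion and the sort. The Mycl KO and Het cells carried a GFP allele at Mycl, and the labels name no Cre driver for either gene. The ages of the mice are not given in the labels. Mycl and Mxd1 are transcription factors of the MYC and MAX network, Mycl an activator with high levels in cDC1 and Mxd1 a repressor, and the comparisons address what each of them changes in these cells.

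Heat shock genes are switched on within minutes to hours when unfolded proteins accumulate, as happens with heat, oxidants, or the warming and digestion of tissue. The transcription factor HSF1, held inactive by chaperones in unstressed cells, then binds heat shock elements, which are runs of the unit GAA or its complement TTC in alternating orientation. Its targets encode the stress-inducible HSP70 proteins (Hspa1a, Hspa1b), which bind unfolded stretches of protein, J-domain proteins that load clients onto HSP70 and stimulate its ATPase (Dnajb1, Dnaja1), exchange factors that release ADP from HSP70 (Hsph1, Bag3), the inducible cytosolic HSP90 (Hsp90aa1) and a small chaperone that holds unfolded proteins without ATP (Hspb1). Hspa8 encodes the constitutive cytosolic HSP70, which is abundant in unstressed cells and is induced less.

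The promoter windows of Hspa1a and Hspa1b are shown because the array could not give Hspa1b a cluster of its own, and because the sequences differ so little. RefSeq windows of build GRCm38.p6 run from 250 bases before the transcription start to 50 bases after it, and were found for 7 of the 9 genes, in 11 windows. None was listed for Hsp90aa1 and Hspa8. Hspa1a lies on the minus strand with its window at chr17:34972107-34972406, and Hspa1b on the minus strand at chr17:34959189-34959488. Both windows are printed 5′ to 3′ on the strand of the gene, and capitals mark a pair of heat shock units facing each other.
Hspa1a: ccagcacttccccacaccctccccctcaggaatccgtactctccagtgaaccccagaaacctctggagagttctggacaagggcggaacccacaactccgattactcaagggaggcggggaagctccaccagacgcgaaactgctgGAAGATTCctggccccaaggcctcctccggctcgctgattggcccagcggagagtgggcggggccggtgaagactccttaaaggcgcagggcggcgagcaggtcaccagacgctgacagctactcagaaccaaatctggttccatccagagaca
Hspa1b: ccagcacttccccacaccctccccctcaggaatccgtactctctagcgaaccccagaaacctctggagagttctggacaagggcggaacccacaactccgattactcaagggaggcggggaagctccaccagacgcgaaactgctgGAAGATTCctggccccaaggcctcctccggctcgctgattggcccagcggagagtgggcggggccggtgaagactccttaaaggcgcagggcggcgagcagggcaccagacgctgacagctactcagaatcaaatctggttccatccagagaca
The windows were equal at 296 of 300 bases (98.7%). Counted from the first base of the window, with the base of Hspa1a first, the differences were C44T, T47C, T249G and C276T. Each window held GAAGATTC from base -104 to base -97 relative to the start, and none of the 4 differences fell in it.

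Hsph1 is shown as the only one of the 7 genes whose windows held an exact match of 3 alternating heat shock units. Units with a changed base were not searched for, so imperfect elements in the other windows were not examined. Its first window lies on the minus strand at chr5:149636266-149636565, and capitals mark the 3-unit match and a pair of units facing away from each other further upstream.
Hsph1: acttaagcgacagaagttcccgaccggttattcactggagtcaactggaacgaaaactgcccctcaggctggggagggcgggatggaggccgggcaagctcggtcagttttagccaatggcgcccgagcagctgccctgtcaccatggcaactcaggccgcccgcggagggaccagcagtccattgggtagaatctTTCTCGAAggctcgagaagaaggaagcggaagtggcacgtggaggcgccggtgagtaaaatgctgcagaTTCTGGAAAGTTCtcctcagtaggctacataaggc
The 3-unit match TTCTGGAAAGTTC lay at bases 16 to 28 after the start, read on the other strand as GAANNTTCNNGAA. A second Hsph1 window with a start slightly upstream held the same match. Of all 32851 promoter windows in the table, 198 (0.603%) held GAANNTTCNNGAA on either strand. The shorter GAANNTTC occurred in 7.86% of the windows and TTCNNGAA in 8.52%, and matches of these shorter motifs can lie within a 3-unit match. Among the other windows, Hspb1 held 2 matches of GAANNTTC, 1 window of Dnaja1 held 1, Bag3 held 1 after its start, and Dnajb1 held none. The E-box CACGTG, the sequence that MYC and MAX dimers bind, was present in 7.15% of all windows and here only in those of Hsph1, in the first from base -19 to base -14. These are matches of letters in 1 window per start, and no binding was measured.

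Levels are the authors' log2 values, so a difference of 1 is a factor of 2. The 4 sets were normalized separately, as seen in the array medians, which spanned 6.50 to 6.57 for set 1, 5.55 to 5.60 for set 2, 5.47 to 5.53 for set 3 and 5.95 to 6.01 for the arrays of the Mxd1 comparison. Levels are therefore tested only within a set, and the effect of poly IC itself cannot be told apart from the set. The Mycl level followed the KO labels in sets 1 and 2, with differences of -2.88 and -4.03 from control. In set 3 the difference was -2.96 ± 0.54 (SE), and the array labelled KO replicate 3 stood at 8.87, near the WT arrays at 9.03 to 9.81 and above the other arrays labelled KO at 5.52 to 6.14. Its target gene goes against its label, so the KO arrays of set 3 are called labelled KO. The heat shock differences within set 3 were also taken without it. Mxd1 in the Mxd1 set was 10.51 in the arrays labelled KO and 10.82 in WT (difference -0.31 ± 0.11, limma adjusted p = 0.26), so its level does not separate these labels, and the arrays are called labelled Mxd1 KO throughout. The level used as a filter was percentile 30 of each array, which most genes reach. Of 19938 genes, 14012 to 14080 passed the filter in the comparisons within a set. Counts of markers at that level therefore do not measure how pure the sorted cells were. All 16 cDC1 markers reached that level on every array. Of the markers of other cells, 7 of 7 for plasmacytoid dendritic cells did so in every group, 8 to 10 of 11 for monocytes and macrophages, 5 to 7 of 9 for cDC2, 5 of 7 for B cells, 2 to 5 of 7 for neutrophils, 2 to 5 of 9 for T and NK cells and 1 or 2 of 3 for erythroid cells. The labels call the arrays biological replicates without saying whether each came from a different mouse, so p-values measure the spread between these arrays, and their number limits the precision. In bulk RNA of this kind, a lower level in all cells and fewer cells with a high level cannot be told apart.

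Hspa1a, the inducible HSP70 gene, was the only one of the 8 measured genes past limma's threshold of an adjusted p under 0.05 in any comparison, and this was in the Mxd1 set. Labelled Mxd1 KO arrays were at 8.76, 8.61 and 8.69, and WT arrays at 10.02, 9.97 and 10.75. Every labelled KO array lay at least 1.2 below every WT array. The difference was -1.56 ± 0.19 (SE), a factor of 2.95, and the adjusted p over 14080 genes was 0.0389. This was 1 of 10 genes (0.071%) past the threshold in that comparison, with 0.0426% of all genes lower and past it, and since the difference may have led to the choice of the gene, nothing is read from its p. Without replicate 1, 2 or 3 of the labelled KO arrays the adjusted p was 0.145, 0.296 or 0.314, and without WT replicate 1 it was 0.0729, while the difference stayed between -1.70 and -1.31 when any single array was left out. The mean of 11 interferon genes was 9.01 to 9.44 on labelled KO and 9.44 to 9.65 on WT arrays, and its part in the difference was not tested.

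After 5 h of poly IC, Hspa1a lay on the other side. Arrays labelled Mycl KO in set 3 were at 10.89, 11.05, 10.49, 10.58 and 10.47, and WT arrays at 8.80, 9.90, 10.34, 9.32 and 10.30. The groups did not overlap, although the lowest labelled KO array and the highest WT array were only 0.13 apart, and WT replicates 1 and 4 were far below the other 3 WT arrays. The difference was 0.97 ± 0.28 (adjusted p = 0.285). At steady state the groups overlapped in both sets. Het arrays of set 1 were at 11.08, 10.55, 10.14, 10.47 and 9.70 and KO arrays at 11.11, 10.48, 11.15 and 10.58, a difference of 0.44 ± 0.24 (adjusted p = 0.432). WT arrays of set 2 were at 11.43, 11.16, 11.02, 11.17 and 11.07 and KO arrays at 10.57, 10.79, 11.14, 11.23 and 11.15, a difference of -0.20 ± 0.12 (adjusted p = 0.366).

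Placed among the 19938 genes of its own array, Hspa1a stood high in every group. It lay between the 98.2th and 99.3th percentiles on all arrays of set 2 and between the 90.5th and 97.6th in set 1. In set 3 it lay between 97.5 and 98.5 in labelled KO and between 90.5 and 97.3 in WT arrays. Percentiles of the Mxd1 set were 95.4 to 97.9 in WT and 85.7 to 87.3 in labelled KO arrays, the lowest of the 8 groups. Percentiles from sets normalized separately are a description and were not tested.

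**Figure D1:**
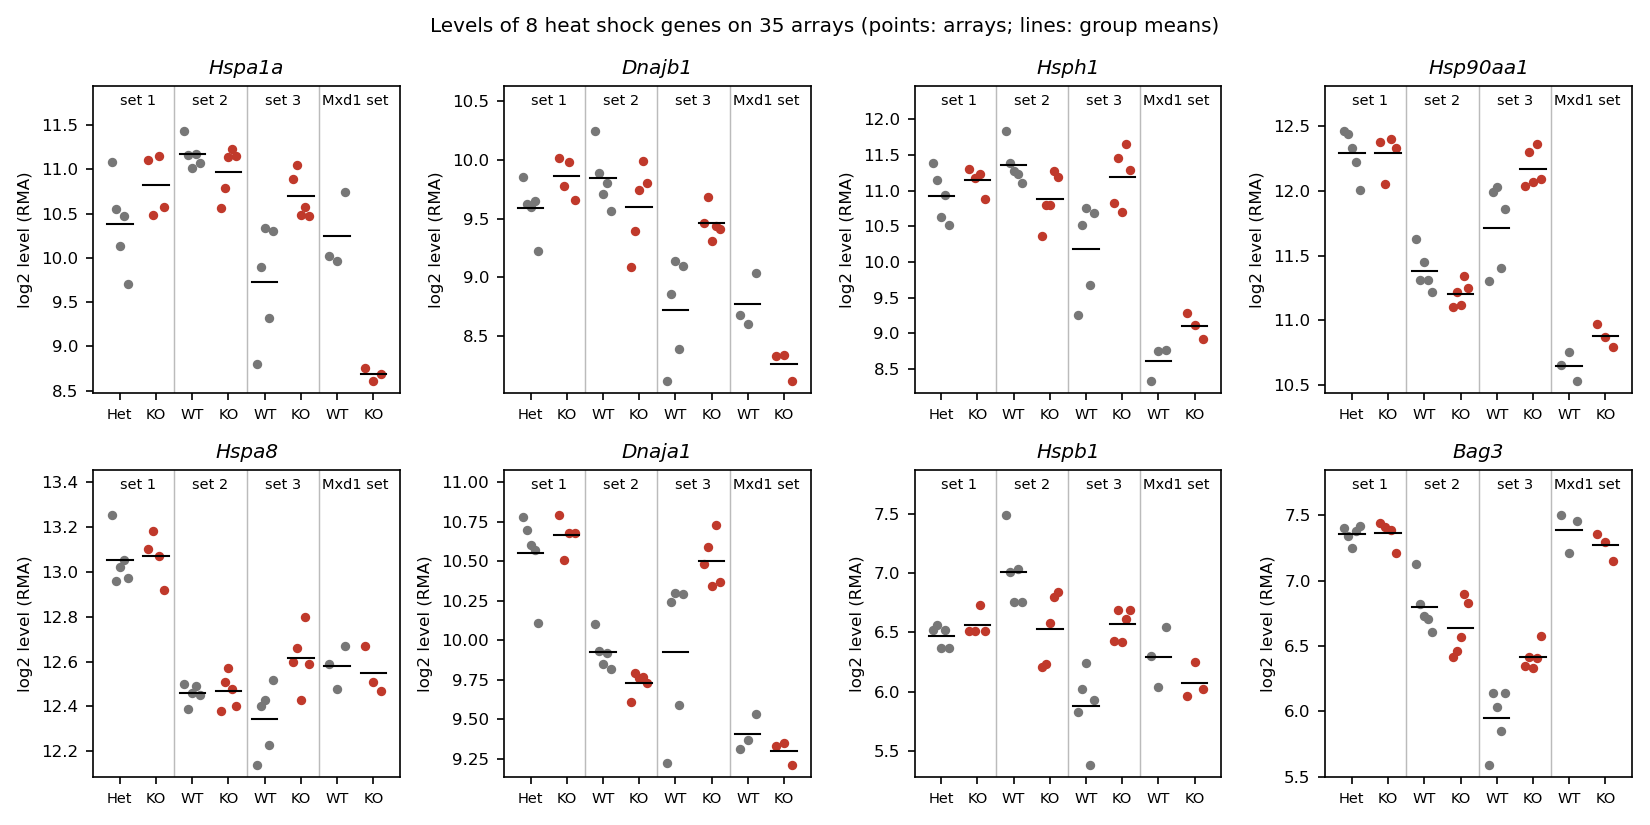
Log2 level (vertical axis, authors' RMA values, a separate scale for each gene) of 8 heat shock genes on each of 35 arrays, grouped by set (horizontal axis); points are arrays, grey for Het or WT and red for KO, and lines are group means. In the Mxd1 set the 3 labelled KO arrays of Hspa1a lie between 8.61 and 8.76, below the WT arrays at 9.97 to 10.75, and in set 3 WT replicates 1 and 4 are the lowest of the 10 arrays for all 8 genes.

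The cluster annotated to both Hspa1a and Hspa1b, which cannot be assigned to either gene, gave similar differences. It read, in the Mxd1 set, 8.63, 8.45 and 8.43 in labelled KO and 9.87, 9.68 and 10.41 in WT arrays, with no overlap. Taken as a feature of its own, which was decided after the data had been seen, it differed by -1.49 ± 0.17 (adjusted p = 0.031). In set 3 its labelled KO arrays were at 11.44, 11.82, 11.04, 11.21 and 10.79 and its WT arrays at 8.94, 10.13, 10.73, 9.67 and 10.82. The highest WT array there lay above the lowest labelled KO array, and the difference was 1.20 ± 0.34 (adjusted p = 0.281). In set 2 its difference of -0.46 ± 0.15 (adjusted p = 0.0806) was larger in size than the -0.20 of the cluster annotated to Hspa1a alone. Its difference in set 1 was 0.43 ± 0.25. Whether the cluster annotated to Hspa1a alone also reads Hspa1b was not examined, so its values are given under that annotation.

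Dnajb1, the J-domain partner of inducible HSP70, followed the direction of Hspa1a in all 4 comparisons. In the Mxd1 set the labelled KO arrays were at 8.33, 8.34 and 8.12 and the WT arrays at 8.68, 8.60 and 9.04. The groups did not overlap, and the difference was -0.51 ± 0.13 (adjusted p = 0.176). In set 3 labelled KO arrays were at 9.46, 9.68, 9.31, 9.44 and 9.41, all above WT arrays at 8.12, 8.86, 9.14, 8.39 and 9.10, with a difference of 0.74 ± 0.19 (adjusted p = 0.237). Both steady-state comparisons overlapped, with 0.27 ± 0.12 in set 1 (KO 9.66 to 10.01, Het 9.22 to 9.85) and -0.24 ± 0.15 in set 2 (KO 9.09 to 9.99, WT 9.56 to 10.24).

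Dnaja1, a J-domain protein that serves both constitutive and inducible HSP70, had the only steady-state groups without overlap among the 8 genes, where 3% of all genes had KO wholly below WT. In set 2 KO arrays were at 9.61, 9.79, 9.76, 9.77 and 9.73 and WT arrays at 10.10, 9.93, 9.85, 9.92 and 9.82, so the nearest arrays were 0.03 apart. The difference was -0.19 ± 0.06 (adjusted p = 0.0833). In set 3 the order was turned, with labelled KO arrays at 10.48, 10.59, 10.34, 10.73 and 10.37 above WT arrays at 9.22, 10.24, 10.30, 9.59 and 10.29. That difference was 0.57 ± 0.21 (adjusted p = 0.293), or 0.22 ± 0.09 (adjusted p = 0.486) without WT replicates 1 and 4, and it was 0.11 in set 1 and -0.11 in the Mxd1 set. A second Dnaja1 cluster read -0.18 in set 2 and 0.57 in set 3, and its groups overlapped in both. A cluster annotated to Mir207 and Dnaja1 together read -0.12 in set 2 and -0.11 in set 3, also with overlap. The lack of overlap in these sets was thus seen only in the cluster used for Dnaja1.

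Hsph1, the HSP110 exchange factor, parted from Hspa1a in the Mxd1 set. Labelled KO arrays were at 9.28, 9.12 and 8.92, above WT arrays at 8.33, 8.75 and 8.76, and the difference was 0.49 ± 0.14 (adjusted p = 0.205). Set 3 gave the largest Mycl KO difference of the 8 genes, 1.01 ± 0.31 (adjusted p = 0.287). Its labelled KO arrays were at 10.82, 11.46, 10.70, 11.65 and 11.29 and its WT arrays at 9.25, 10.52, 10.75, 9.67 and 10.69, so the array labelled KO replicate 3 lay just under WT replicate 3. In set 2 the difference was -0.48 ± 0.16 (adjusted p = 0.0826), from KO arrays at 10.36 to 11.27 and WT arrays at 11.10 to 11.83. In set 1 it was 0.22 ± 0.16, with KO at 10.88 to 11.30 and Het at 10.52 to 11.38.

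Bag3, an exchange factor that hands clients of HSP70 to autophagy, lay higher in every labelled KO array of set 3 (6.33 to 6.58) than in any WT array (5.59 to 6.14). The difference was 0.47 ± 0.11 (adjusted p = 0.22). Elsewhere its groups overlapped, with 0.00 ± 0.06 in set 1, -0.16 ± 0.11 in set 2 and -0.12 ± 0.10 in the Mxd1 set.

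Hspb1, the small heat shock protein HSP25, had the smallest adjusted p of the 8 genes in both set 2 and set 3, on opposite sides. In set 2 KO arrays lay at 6.21 to 6.84 and WT arrays at 6.76 to 7.49, and the difference was -0.48 ± 0.14 (adjusted p = 0.0638). In set 3 labelled KO arrays lay at 6.42 to 6.69, above WT arrays at 5.38 to 6.24, and the difference was 0.69 ± 0.14 (adjusted p = 0.163). A second Hspb1 cluster gave -0.44 and 0.58 in these sets. In set 1 the difference was 0.10 ± 0.06 and in the Mxd1 set -0.22 ± 0.14, both with overlap. Hspb1 stood near the middle of the array, between the 43.0th and 75.8th percentiles of genes.

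Hsp90aa1, the inducible cytosolic HSP90 gene, lay higher in labelled KO arrays of set 3 (12.04 to 12.36) than in WT arrays (11.30 to 12.03), with nearly equal nearest arrays, by 0.46 ± 0.15 (adjusted p = 0.292). In the Mxd1 set its labelled KO arrays, at 10.97, 10.87 and 10.79, also lay above the WT arrays, at 10.65, 10.75 and 10.53, by 0.23 ± 0.09 (adjusted p = 0.273). It overlapped at steady state, with -0.00 ± 0.10 in set 1 and -0.18 ± 0.08 in set 2. Its other 2 clusters gave 0.47 and 0.58 in set 3 and 0.19 and 0.17 in the Mxd1 set.

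Hspa8, the constitutive HSP70 gene, had the smallest difference of the 8 genes in sets 2 and 3 and in the Mxd1 set, with 0.01 ± 0.05, 0.27 ± 0.09 and -0.03 ± 0.09. In set 1 it was 0.02 ± 0.07. Its groups overlapped in all 4 comparisons, and it lay at or above the 99.7th percentile of genes on every array. Its other 2 one-symbol clusters read 0.17 and 0.18 in the Mxd1 set (limma adjusted p 0.339 and 0.333), opposite in sign to the cluster used. In both, labelled KO lay wholly above WT, as for 11.8% of all genes. In set 3 a pair of clusters shared with the small nucleolar RNAs Snord14c and Snord14d read -0.33. Hsp90aa1, Hspa8, Dnaja1 and Hspb1 each have several clusters, whose positions are not given in the annotation used here. Some of these clusters may therefore read near-identical copies of the gene, and their values are uncertain to that extent. This holds also for the clusters used as the values of these genes, which were picked by their highest mean.

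Across the 8 genes, set 3 was the comparison in which all lay on the same side. All 8 differences were above 0, from 0.27 to 1.01 with a median of 0.63, against a median of -0.001 over all 14033 genes. Labelled KO and WT arrays did not overlap for 6 of the 8 genes, while labelled KO lay wholly above WT for 1.91% of all genes. An unadjusted p under 0.05 in the higher direction was reached by 8 of 8, against 6.61% of all genes. After adjustment limma called 0 of the 8 and 0 genes in all (0%), with 1992 genes (14.2%) at an unadjusted p under 0.05, and the members' adjusted p ran from 0.163 to 0.293. When the spread was pooled over all 8 groups of the study, 1910 genes and all 8 heat shock genes passed (adjusted p 0.00247 to 0.0132). Those p-values do not measure the spread of the set 3 arrays alone. The standard deviation of Hspa1a was 0.66 in WT arrays of set 3 and 0.08 to 0.51 in the other groups. With array weights 72 genes and Hspb1 passed (adjusted p = 0.0374). Leaving out the array labelled KO replicate 3, whose Mycl level was high, gave 1.02 ± 0.31 for Hspa1a, 1.13 ± 0.32 for Hsph1 and 0.32 ± 0.09 for Hspa8, and all 8 differences were above 0 (adjusted p 0.209 to 0.333).

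The same WT arrays that were low for heat shock genes in set 3 were low for interferon genes. The mean of 11 interferon-stimulated genes was 7.59, 10.92, 10.92, 8.77 and 11.18 on WT replicates 1 to 5 and 11.40, 11.31, 11.02, 11.03 and 11.03 on the labelled KO replicates. WT replicates 1 and 4 were thus lowest for the interferon genes and also the lowest of the 10 arrays for each of the 8 heat shock genes. All 11 interferon genes lay above 0 in the KO comparison, with a median of 1.23, and none passed after adjustment. The same pair of arrays stood apart on other lists. The mean of 16 cDC1 markers was 10.61 and 10.74 on WT replicates 1 and 4, 10.08 to 10.22 on the other WT arrays and 10.05 to 10.25 on labelled KO arrays, and 13 of the 16 lay below 0 in the comparison. The mean of 8 mitochondrial chaperones was 8.26 and 8.21 on that pair, 7.75 to 7.79 on the other WT arrays and 7.61 to 7.91 on labelled KO arrays. Without WT replicates 1 and 4, a choice made after the data had been seen, all 8 heat shock differences were still above 0 but smaller. Hspa1a was then 0.52 ± 0.14 (adjusted p = 0.226), Hsph1 0.53 ± 0.18 (0.35), Dnajb1 0.43 ± 0.10 (0.112), Hspb1 0.51 ± 0.10 (0.0796), Bag3 0.31 ± 0.08 (0.172), Hsp90aa1 0.21 ± 0.09 (0.506) and Hspa8 0.16 ± 0.09 (0.601). Under that choice 10 genes of the whole array passed and none of the 8. The part of the interferon, cDC1 marker and mitochondrial levels in these differences was not tested beyond this.

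**Figure D2:**
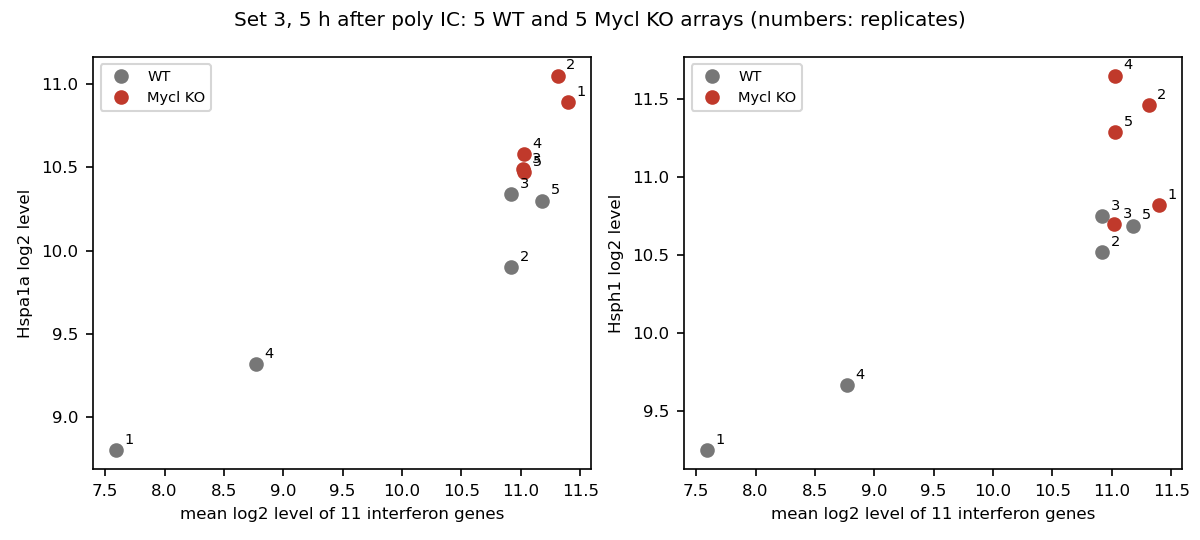
Log2 level of Hspa1a (left) and Hsph1 (right) against the mean log2 level of 11 interferon genes on the 10 arrays of set 3, taken 5 h after poly IC; grey points are WT, red points labelled Mycl KO, and numbers are replicates. WT replicates 1 and 4 lie apart at interferon means of 7.59 and 8.77, and the other 8 arrays lie between 10.92 and 11.40.

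At steady state the 8 genes lay mostly above 0 in set 1 and mostly below 0 in set 2. Of all genes tested, 51.3% lay above 0 in set 1 and 52.9% in set 2. Bag3 at 0.00 ± 0.06 and Hspa8 at 0.02 ± 0.07 are counted as above 0 in set 1 although they were close to it. In set 1, 7 of the 8 differences were above 0 with a median of 0.11, all groups overlapped (4.46% of all genes had groups that did not), and limma called 0 of 8, against 3 of 14023 genes (0.0214%). Dnajb1 was the only one of them with an unadjusted p under 0.05, which 5.75% of all genes reached in the higher direction. In set 2, 7 of the 8 were below 0 with a median of -0.19. Limma called 0 of 8 there too, against 861 of 14012 genes (6.14%), and 4 of 8 had an unadjusted p under 0.05 in the lower direction (Hsph1, Hspb1, Dnaja1 and Hsp90aa1), against 8.56% of all genes. With quantile normalization of all arrays Dnaja1 and Hspb1 passed in set 2, at adjusted p 0.0307 and 0.0456. Markers of several cell types also changed in set 2. The monocyte and macrophage genes Cd14 (-1.42 ± 0.10, adjusted p = 1.72e-06) and Spic (-0.58) fell and Cx3cr1 rose (0.56). Of the cDC2 list, Cd209a (1.37) and Itgam (0.44) rose and Cd4 (-0.53) fell. Of the plasmacytoid list, Tcf4 (0.50) and Ccr9 (0.43) rose and Pacsin1 (-0.54) fell. The B cell gene Cd22 (0.70) and the NK cell gene Klrd1 (0.97) rose and the B cell gene Ms4a1 (-0.58) fell. Of the cDC1 markers 6 rose, among them Zbtb46 (0.32), Batf3 (0.27) and Flt3 (0.27), and Cd8a fell (-0.38). The interferon genes Irf7 (0.43), Cmpk2 (0.43) and Usp18 (0.39) rose. The part of other cells in the heat shock differences of set 2 was not tested. Both steady-state sets fitted together, with the set as a block, gave differences from -0.21 (Hspb1) to 0.11 (Hspa1a), none past the test (adjusted p 0.313 to 0.995, 4.43% of genes called).

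The 8 genes split between labelled Mxd1 KO and WT. Labelled KO arrays lay wholly below WT for Hspa1a and Dnajb1 and wholly above for Hsph1 and Hsp90aa1, where 10.8% and 11.8% of all genes did so. Median difference over the 8 genes was -0.11, and 4 had an unadjusted p under 0.05, against 15.9% of genes. Hspb1, Hspa8, Dnaja1 and Bag3 overlapped. Spic, a transcription factor gene of red pulp macrophages, fell by 1.14 ± 0.11 (adjusted p = 0.0197), the only marker of the cell lists past the test in that set. The mean of 11 monocyte and macrophage markers was 6.48 to 6.52 on labelled KO and 6.49 to 6.63 on WT arrays, that of 9 cDC2 markers 5.90 to 5.91 and 6.01 to 6.05, and that of 16 cDC1 markers 10.81 to 10.86 and 10.46 to 10.76. Their part in the heat shock differences was not tested.

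**Figure D3:**
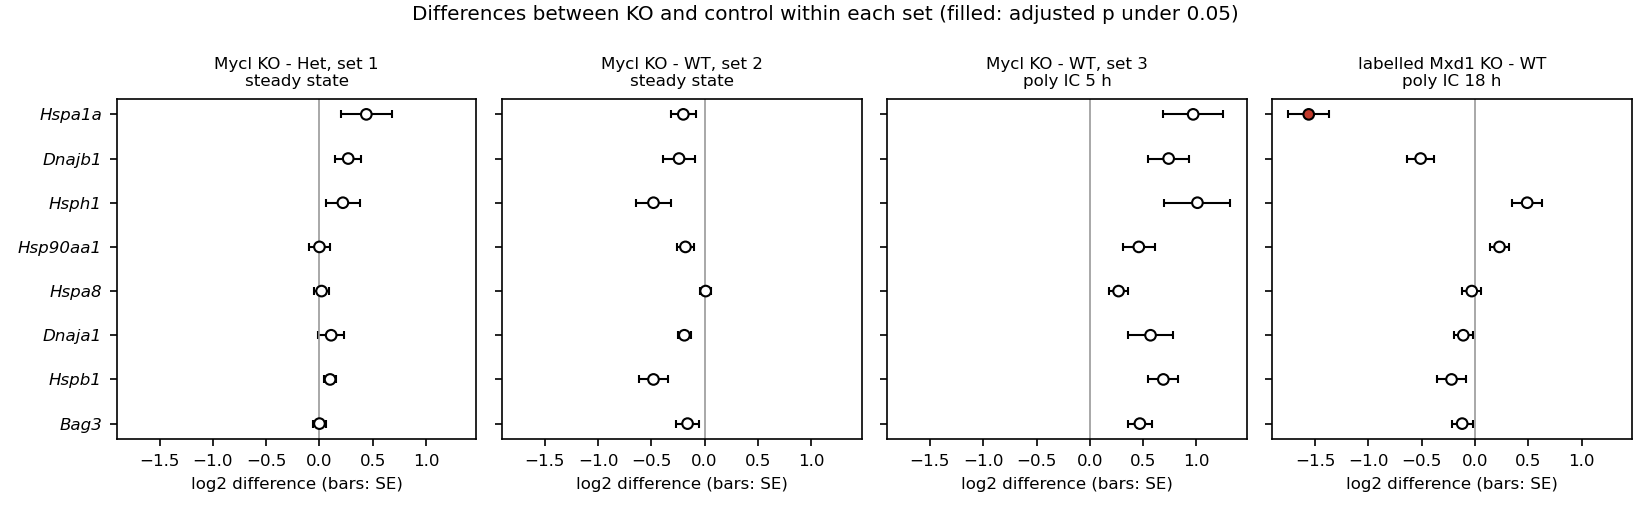
Log2 difference between KO and control (horizontal axis, bars are standard errors from limma) for 8 heat shock genes in the 4 comparisons; the filled point marks an adjusted p under 0.05. All 8 points lie above 0 in set 3 (0.27 to 1.01), and in the Mxd1 set Hspa1a at -1.56 and Hsph1 at 0.49 lie on opposite sides.

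Sets 2 and 3 compared the same genotypes without and with poly IC, and the KO differences of both sets were also set against each other in 1 fit. Poly IC and set cannot be told apart in this contrast. The array labelled KO replicate 3 of set 3, whose Mycl level went against its label, was kept in it. The set 3 difference was higher than that of set 2 for all 8 genes, by 0.26 (Hspa8) to 1.49 ± 0.37 (Hsph1, adjusted p = 0.13), with Hspa1a at 1.16 ± 0.32 (adjusted p = 0.185) and Hspb1 at 1.17 ± 0.22 (adjusted p = 0.0627). It was higher for 47.4% of all genes. None of the 8 passed after adjustment, and 3 of 14665 genes did (0.0205%). Without WT replicates 1 and 4 of set 3, Hspb1 passed at 0.98 ± 0.20 (adjusted p = 0.0389), and the other 7 did not. Hspa1a was then at 0.71 ± 0.20 (0.148), Hsph1 at 1.01 ± 0.27 (0.124), Dnajb1 at 0.67 ± 0.21 (0.201), Dnaja1 at 0.42 ± 0.11 (0.127), Bag3 at 0.48 ± 0.14 (0.19), Hsp90aa1 at 0.39 ± 0.12 (0.201) and Hspa8 at 0.15 ± 0.10 (0.617), with adjusted p in parentheses. Between the steady-state sets, the set 2 difference lay below that of set 1 for all 8 genes, by up to -0.70 ± 0.24 for Hsph1 (adjusted p = 0.151), and none passed (148 of 14639 genes, 1.01%). Of all genes, 52.0% lay above 0 in that contrast. The control of set 1 was heterozygous and that of set 2 wild type, so genotype of the control and set cannot be told apart.

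Other chaperone genes, taken by family, were called in set 2 and in the combined steady-state fit, where 6.14% and 4.43% of all genes were called. Of 8 further HSP70 family genes in set 2, 1 fell: Hspa1l, a testis-enriched HSP70 gene next to Hspa1a, by 0.63 ± 0.15 (adjusted p = 0.0215), with every KO array below every WT array. Its differences in set 3 and the Mxd1 set had the signs of Hspa1a, 1.15 ± 0.30 (adjusted p = 0.25) and -0.60 ± 0.17 (adjusted p = 0.207), without overlap in either. Of 14 further J-domain genes, Dnajb14 fell in set 2, by 0.27 (adjusted p = 0.0269). Of 8 mitochondrial chaperones, Hspa9, the mitochondrial HSP70, fell by 0.41 ± 0.06 (adjusted p = 0.00159) and Hspd1, the chaperonin HSP60, by 0.43 ± 0.11 (adjusted p = 0.0291) in set 2. No gene of these families passed in sets 1, 3 or the Mxd1 set, and neither did any of 12 HSP90 co-chaperones, 8 HSP70 cofactors or 8 further small heat shock genes in any of the 4 comparisons within a set. With both steady-state sets in 1 fit, 1 of 12 HSP90 co-chaperones fell (Ppid, -0.21, adjusted p = 0.0433), 2 of 8 HSP70 cofactors (Bag5, -0.20, adjusted p = 0.0215, and Stub1, -0.18, adjusted p = 0.0383), 2 of 14 J-domain genes (Dnajb14, -0.17, adjusted p = 0.0276, and Dnajc2, -0.16, adjusted p = 0.0234) and 2 of 8 mitochondrial chaperones (Hspa9, -0.36, adjusted p = 0.000661, and Hspd1, -0.31, adjusted p = 0.0484). Hsbp1, a binding partner of HSF1, was at 0.36 ± 0.10 in set 2 (adjusted p = 0.0552) and 0.31 ± 0.10 in set 3 (adjusted p = 0.288). Hsf1 and Hsp90ab1 had no cluster of their own and were not analysed here.

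Immediate early genes, which share with heat shock genes a rapid response to tissue dissociation, were compared through the mean of 27 genes. In set 1 this mean was 10.40 to 10.47 on KO and 10.09 to 10.37 on Het arrays, and 24 of the 27 genes lay above 0. In set 3 it was 9.25 to 9.48 on labelled KO and 9.12 to 9.23 on WT arrays, with 20 of 27 above 0. In the Mxd1 set it was 9.65 to 9.74 on labelled KO and 9.84 to 9.87 on WT arrays, with 20 of 27 below 0. The groups did not overlap in these 3 comparisons, though the nearest arrays were close in set 1 (10.40 and 10.37) and set 3 (9.25 and 9.23). Of all single genes, 4.46% had groups without overlap in set 1. In set 3, 1.91% had labelled KO wholly above WT, and in the Mxd1 set 10.8% had it wholly below. No such share was computed for means of 27 genes. The immediate early mean lay on the side of Hspa1a in each of the 3 comparisons. In set 3 it was lowest on WT replicates 1 and 4, at 9.14 and 9.12, with the other WT arrays at 9.23. These were also the lowest arrays for the heat shock and interferon genes. Of all genes tested, 51.3% lay above 0 in set 1, 49.7% in set 3 and 49.4% in the Mxd1 set. In set 2 the means overlapped (KO 9.73 to 10.00, WT 9.77 to 9.88), and Ier3, Dusp1 and Egr1 rose while Junb fell. None of the 27 passed in the other 3 comparisons within a set, and in the combined steady-state fit 5 rose, led by Ier3 (0.52), Gadd45b (0.34), Dusp1 (0.32) and Egr1 (0.27). The KO difference of Btg2 was lower in set 2 than in set 1 (-0.40 ± 0.08, adjusted p = 0.0221). The part of handling of the cells in the heat shock differences was not tested.

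Within a group, arrays high for Hspa1a were high for the other heat shock genes. To take out the mean differences between genotypes, treatments and sets, the mean of its group was subtracted from each array. The 35 values of each gene were then correlated, with permutations within groups. Unequal responses to poly IC among arrays of a group remain in these values. On WT replicates 1 and 4 of set 3, with interferon means of 7.59 and 8.77, centred Hspa1a was -0.93 and -0.41. It was 0.17 to 0.61 on the other WT arrays of that set. Pearson's r with Hspa1a was 0.89 for Dnajb1 (Spearman's rho 0.90), 0.84 for Dnaja1 (0.75), 0.78 for Hsph1 (0.72), 0.69 for Hsp90aa1 (0.58), 0.64 for Hspa8 (0.60), 0.58 for Hspb1 (0.66) and 0.56 for Bag3 (0.54). For the immediate early mean r was 0.63 and rho 0.60. The permutation p adjusted over these 8 relations ran from 2.67e-05, where the raw p of 1e-05 was the smallest that 100000 resamples can give, to 0.0019 for r, and from 8e-05 to 0.00354 for rho. Without Het replicate 1 of set 1 (0.70 above its group mean) and WT replicate 1 of set 3 (0.93 below), which were farthest from the median, r ranged from 0.44 (Bag3) to 0.87 (Dnajb1) and all 8 stayed under an adjusted p of 0.05. WT replicate 4 of set 3 was kept there.

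The same relations were computed in each set. Dnajb1 gave r = 0.93, 0.97, 0.98 and 0.87 in set 1, set 2, set 3 and the Mxd1 set, with exact permutation p adjusted over 8 relations of 0.0178, 0.00278, 0.00167 and 0.593. Only 36 permutations exist in the Mxd1 set, where none of the 8 relations had an adjusted p of r under 0.05. Of the 8 relations, 5 were under it in set 1, 5 in set 2 and 2 in set 3. Dnaja1 gave 0.85, 0.71, 0.91 and 0.76, and Hsph1 gave 0.89, 0.88, 0.80 and 0.41. Bag3 ran from 0.23 in set 1 to 0.85 in set 2, and Hspb1 from 0.55 in set 3 to 0.92 in set 2. Hsp90aa1 gave 0.82, 0.57 and 0.82 in the Mycl sets and -0.65 in the Mxd1 set (adjusted p = 0.698). The immediate early mean gave 0.85, 0.70, 0.56 and 0.25. Among all 28 pairs of the 8 genes over 35 arrays, r ran from 0.33 to 0.89 with a median of 0.69, and 24 pairs were over 0.5.

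**Figure D4:**
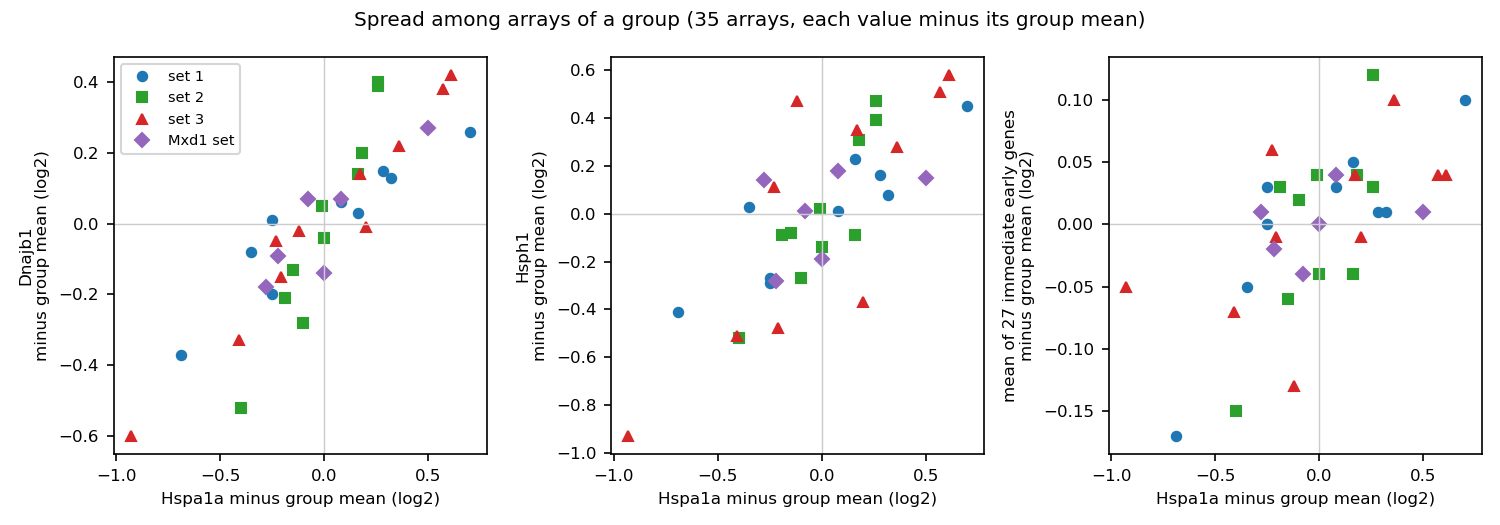
Dnajb1 (left), Hsph1 (middle) and the mean of 27 immediate early genes (right) against Hspa1a, each as log2 level minus the mean of its own group, for 35 arrays; colours and shapes mark the 4 sets. The points rise together, with r = 0.89, 0.78 and 0.63, and the array farthest to the left, 0.93 below its group mean, is WT replicate 1 of set 3.

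Among 13023 genes present in every set, the pattern most like that of Hspa1a by the same group-centred r was that of Dnajb1, followed by Dnaja1, with Hsph1 at rank 4, Hsp90aa1 at rank 20, Hspa8 at 85, Hspb1 at 291 and Bag3 at 389. The 10 nearest genes outside the 9 were Tnfsf9 (r = 0.80), which encodes the ligand of the costimulatory receptor 4-1BB, Ppp1r15a (0.77), which encodes GADD34, a stress-induced subunit of the eIF2α phosphatase, Gdap10 (0.76), Procr (0.74), the HSP110 gene Hspa4l (0.73), the MAP kinase phosphatase gene Dusp1 (0.73), Hspa1l (0.72), the J-domain gene Dnajb6 (0.71), Fbrs (0.71) and the cytokine gene Il15 (0.71). For Il15, r was 0.80 in set 1, 0.06 in set 2, 0.96 in set 3 and -0.54 in the Mxd1 set. For Hspa1l it was -0.14, 0.78, 0.95 and 0.81. Points of these relations share their array, so RNA quality and depth of amplification are common to all genes of a point, and genes are not independent of each other.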

How the data were processed

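The authors' deposited table holds log2 values for 35556 transcript clusters on 35 arrays, made with RMA (background correction, quantile normalization, probe summary) in the Affymetrix Expression Console, per the submitters' processing notes. The sources used here do not give versions. The design names spike-ins, and none was used here, so every value is relative to the other transcripts of its array. Arrays of 1 set shared exactly equal values (13.62 to 1987.08 per pair on average) and pairs from different sets 0.207, so the sets were treated as normalized separately.

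Clusters were named through the platform annotation: 21789 had 1 symbol (21698 with an Entrez ID found in RefSeq, 0 symbols updated), 1621 had several and 12146 were not listed. For 999 genes with several clusters the one with the highest mean was used. A gene was tested if at or above the 30th percentile on at least the number of arrays in the smaller group. Groups were compared within sets with lmFit and eBayes (limma 3.58.1 in R 4.3.3), 2-sided, and p-values were adjusted by Benjamini-Hochberg over every gene in the fit. The scripts were tested on simulated data. The genes and lists were chosen with earlier results of these data known. All 9 genes are named in every comparison; of each other list, the genes past the test, up to the 4 with the largest difference, or else at most 2 as values, of which the text leaves out cell marker and interferon genes in the fits that join sets and most genes that did not pass; and the 10 genes most like Hspa1a. Replicate numbers were not treated as pairs, since same-numbered arrays correlated from -0.40 to 0.35. Alternatives were other filters, array weights, trend and robust eBayes, quantile normalization, the mean over clusters, 1 fit over all groups, a replicate block and leaving out each array. Added after the data had been seen were a fit with each cluster of these genes as its own feature and a fit without WT replicates 1 and 4 of set 3. Poly IC was not tested against steady state.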

Additional observations from a re-analysis of the deposited data

Results flagged for a closer look

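Hspb1 on KO replicate 3 of set 1 stood at 6.73, apart from the other 3 KO arrays, which were all at 6.51. Of 48 combinations of gene and group looked at for a lone array, this was the only one past Dixon's critical value, which chance passes in about 1 of 20 groups.

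In the cluster used, Dnaja1 lay below WT on every Mycl KO array of set 2 and above WT on every array labelled Mycl KO in set 3. In the second Dnaja1 cluster and in the one shared with Mir207 the groups overlapped in both sets. For the cluster used, the KO difference of set 3 exceeded that of set 2 by 0.77 ± 0.22 (limma adjusted p = 0.198), which did not pass the test. Without WT replicates 1 and 4 of set 3 it was 0.42 ± 0.11 (adjusted p = 0.127). The array labelled KO replicate 3 of set 3 had a Mycl level of 8.87, against its label.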

How the results depend on the processing

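The number of arrays, 3 to 5 a group, limits all calls. Under 8 alternatives that keep every array, Hspa1a in the Mxd1 set kept its call (-1.62 to -1.49, adjusted p 0.00498 to 0.0485). Leaving out 1 array at a time, it was called in only 2 of 6 fits (limma adjusted p 0.00139 to 0.314). Against 861 genes called, set 2 gave 358 with all groups in 1 fit and 408 to 1007 leaving out an array. Heat shock genes called there were 2 with quantile normalization and 0 to 1 leaving out an array (Hsph1 at an adjusted p of 0.0473 without KO replicate 4, Hspb1 at 0.0439 without WT replicate 5). Set 1, with 3 genes called, gave 5 with a 50th percentile filter, 141 with array weights, 6 with quantile normalization and 1 to 7 leaving out an array. Set 3, with 0, gave 1 with no filter, 72 with array weights, 1910 with all groups in 1 fit, 10 without WT replicates 1 and 4 and 0 to 2 leaving out an array, with 1 (array weights) and 8 (all groups) heat shock genes called. The Mxd1 set, with 10, gave 18 with array weights, 235 with all groups and 3 to 568 leaving out an array (568 without WT replicate 2, 3 or 4 without WT replicate 1 or any labelled KO array), with 0 to 1 heat shock genes called. Between sets 2 and 1, 584 genes passed with array weights against 148. Between sets 3 and 2, against 3, 6 passed with the 50th percentile filter, 74 with array weights, 9 with trend and robust and 41 without WT replicates 1 and 4, with 1 heat shock gene called under array weights and 1 without those arrays. Fits over all groups take their spread from every set, not only from the groups compared. Why these counts changed was not tested.

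With the replicate number as a block, 1, 830, 1 and 16 genes passed in set 1, set 2, set 3 and the Mxd1 set, and the calls of heat shock genes were 0, 0, 0 and 1, as without it. The r of Hspa1a and Hsp90aa1 was -0.65 within the Mxd1 set alone.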

Other observations

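In the Mxd1 set, where Hspa1a lay lower in labelled KO arrays, most chaperone genes of other compartments lay above 0 without passing the test. Of 17 genes of the endoplasmic reticulum chaperone and unfolded protein list, 15 lay above 0 in labelled Mxd1 KO arrays, with a median of 0.33, and none passed limma's test. Hsp90b1, the HSP90 of the endoplasmic reticulum, was at 0.72 ± 0.19 (adjusted p = 0.195) and Hyou1 at 0.60 ± 0.19 (adjusted p = 0.223). Of 8 mitochondrial chaperones, 7 lay above 0 with a median of 0.32, and Trap1, the mitochondrial HSP90, was at 0.50 ± 0.14 (adjusted p = 0.201). Ahsa1, which stimulates the ATPase of HSP90, was at 0.68 ± 0.17 (adjusted p = 0.183). Over all genes tested in that set the median was -0.002.

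Of 10 oxidative stress genes tested in set 2, 8 lay below 0 and none passed, with Hmox1, heme oxygenase, at -0.48 ± 0.14 (adjusted p = 0.0524). In set 3, 8 of 10 lay above 0 and none passed, with Hmox1 at 0.42 ± 0.16 (adjusted p = 0.306).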
